A study of Mus musculus with 8 samples.

Results

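The comparison described here is the removal of interleukin-7 (IL-7) from mouse pre-B cells that carried a control vector, measured on 4 of the 8 microarrays of the study. The members were taken by their sample titles alone: 2 arrays of wk3 cells with a scrambled sponge kept in excess IL-7, and 2 arrays of the same kind of cells 36 h after IL-7 was taken away. wk3 is a cultured line of pre-B cells from SLP-65-/- mice, so the controls carry that deletion too, as do the sponge cells. Each culture had been infected with a retroviral vector and selected with puromycin. The scrambled sponge is the control for a miR-15 sponge, an RNA with sites for the miR-15 family of microRNAs. The other 4 arrays, of miR-15 sponge cells with IL-7 (2) and 36 h without it (2), entered the statistical fit and are used here to say where the scrambled cells differed.

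IL-7 is the main growth factor of mouse pre-B cells. Its receptor works through JAK kinases, STAT5 and PI3K, which keep the cells dividing and hold the factor FoxO1 out of the nucleus. When the signal stops, pre-B cells are known to leave the cell cycle, express the RAG recombinase and rearrange their immunoglobulin light chain genes. SLP-65, encoded by Blnk, is an adaptor of the pre-B cell receptor, and pre-B cells without it go on growing in IL-7. The IL-7 came as supernatant of J558L plasmacytoma cells; the labels do not say whether a control supernatant replaced it.

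Levels are log2 signals of 1 probe per gene minus the 75th percentile of the array, so 0 is the upper quartile of an array and negative values are dimmer. Levels of different probes are not comparable, and changes are log2 differences, without IL-7 minus with IL-7, given ± the standard error of the fit. Each group holds 2 arrays, from 2 experiments with separately made clones. Some fits were repeated with 1 array left out. Replicates 1 and 2 are then called P1 and P2 with IL-7 and M1 and M2 without it. The block is the replicate number as a term of the fit. Lost calls are listed for these refits, and for the other settings only for some genes. The arrays had between 50.6% and 55.7% of spots well above background. The replicates correlated at 0.990 with IL-7 and 0.997 without it, and 1168 genes with IL-7 against 193 without it lay more than 1 log2 unit apart between the replicates. The arrays shared 1 slide and 1 scan. The 2 arrays with IL-7 lay in slide column 1 and the 2 without it in column 2, so slide column and IL-7 cannot be told apart.

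Pre-B cell markers were bright in both conditions: 17 of 18 could be tested, and their summed signal, in units of the array's 75th percentile, ran from 2375 to 2470 with IL-7 and from 2511 to 2529 without it. Of the other lineages, 4 of 11 T cell markers were tested, with sums of 17.1 to 17.7 with IL-7 and 19.5 to 19.8 without. The 8 myeloid markers of 14 summed to 162 to 199 and 204 to 217, and the 7 plasma cell markers of 9, 5 of them called higher and 1 lower, to 146 to 161 and 190 to 208. The 3 summed levels just given for other lineages were each higher without IL-7. Sums over the tested NK (4 of 8), erythroid (5 of 9) and stromal (2 of 10) markers were at or below 7.45. Single markers still moved: the NK receptor gene Klrd1 (-4.8 and -4.59 with IL-7 and -1.82 and -1.46 without it) was called higher and the myeloid lysozyme gene Lyz1 (-2.94 and -3.08 with IL-7 and -4.57 and -6.29 without it) lower, each well above background on 1 of the 2 arrays of its dim group. The T cell genes Cd3d, Cd3g and Cd8a, the granulocyte genes S100a8 and S100a9, and the stromal genes Col1a1 and Col3a1 were not well above background in any group. Whether other cells had a part in any change was not tested. Bulk RNA cannot tell fewer cells of a kind from less RNA per cell. The probe for Blnk read 7.55 and 7.42 with IL-7 and 8.19 and 8.24 without it; whether it lies in the deleted part of the gene is not given, so it does not check the genotype. Counts that moved by over 1.5 times were these: plasma cell markers called higher numbered 2 to 3 with normexp background correction and without M2.

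Of 21320 genes tested, 4414 (20.7%) were called higher and 5837 (27.4%) lower without IL-7 at an adjusted p below 0.05 in limma, together 48.1%; 1223 of the rises and 1558 of the falls were at least 2-fold. The median change over all genes was -0.02. The count of a gene group is to be read against these shares. A count whose share is near or below them says nothing particular about the group. This holds also where the share is not repeated beside the count. The tested genes include those bright in only 1 of the 4 groups of arrays, so counts and medians of a list describe its measured members.

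Withdrawal was followed by large rises of the recombinase and light chain genes. Rag1, a subunit of the recombinase that cuts immunoglobulin gene segments, read -0.88 and -0.50 with IL-7 and 2.75 and 3.04 without it, a rise of 3.59 ± 0.27 (adjusted p = 0.00037) or 12-fold. Its partner Rag2 read -0.38 and -0.08 with IL-7 and 1.87 and 2.08 without it, a rise of 2.21 ± 0.18. Both arrays without IL-7 lay far above both arrays with it for the pair. Dntt, which encodes the TdT enzyme that adds bases at the joints of gene segments, read 6.12 and 6.15 with IL-7 and 6.11 and 6.07 without it and was not called (adjusted p = 0.65).

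The kappa constant region gene Igkc read 2.15 and 2.71 with IL-7 and 5.67 and 6.06 without it, a rise of 3.44 ± 0.22 (adjusted p = 0.00029), or 10.8-fold. Its probe lies at chr6:70676692-70676751 in build mm9. A second probe that the array files name Igkc, at chr6:70690489-70690548, lies beyond the constant region probe and rose by 2.77. The lambda constant genes went from dim to bright: Iglc2 read -2.11 and -1.51 with IL-7 and 2.88 and 3.47 without it, a rise of 4.99 ± 0.32, the largest among genes with a symbol that were well above background on all 4 arrays. Iglc3 read -0.96 and -0.36 with IL-7 and 3.52 and 4.12 without it, a rise of 4.48 ± 0.29, and Iglv1, a lambda variable segment, read -3.55 and -3.35 with IL-7 and -0.11 and 0.35 without it, a rise of 3.56 ± 0.18. In each of these genes the lower array without IL-7 was at least 2 log2 units above the higher array with it. A second Iglc3 probe, which overlaps the first, rose by 4.96. Whether the probes tell Iglc2 from Iglc3 was not tested, so the 2 rises may not be separate.

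The heavy chain gave few calls. Ighm, the mu constant region, read 7.78 and 7.86 with IL-7 and 7.93 and 7.97 without it, a difference of 0.13 ± 0.07 that was not called (adjusted p = 0.2). Of 13 heavy chain variable segments that could be tested, 2 were called higher and 2 lower, with a median change of -0.14; the pair that rose, named after their values were seen, were Ighv8-12, from -2.17 and -2.12 to -0.59 and -0.46, and Ighv8-5, from -3.18 and -3.27 to -1.71 and -1.84. The pair that fell were Ighv1-54 (-0.63) and Ighv1-83 (-0.60). The surrogate light chain, which pairs with mu before a light chain is made, changed little: Igll1 fell by 0.39, from 7.28 and 7.38 to 6.97 and 6.91, but its change was 0.06 and not called with quantile normalization, while Vpreb1 (9.29 and 9.16 to 9.1 and 9.05), Vpreb2 (7.02 and 7.03 to 6.83 and 6.8) and Vpreb3 (9.03 and 8.88 to 8.88 and 8.86) were not called. With quantile normalization Vpreb2 (0.23), Vpreb3 (0.18), Dntt (0.41) and Ighm (0.49) were called higher, and with normexp background correction Vpreb2 (-0.29) was called lower. Cd79b, a signalling chain of the receptor, rose by 0.40 ± 0.07. The call was lost for Igll1 (-0.42 to -0.33 without P2, M1 or M2).

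The array also carries probes for single kappa variable (V) segments, which the array files describe by name. The sequences of 4 of these 60-base probes are given here since the segments show the contrast in this locus; each is printed 5′ to 3′ as the array files hold it, in lower case with no part marked. Igkv8-16 (chr6:70336871-70336930, minus strand, mm9) and Igkv6-29 (chr6:70088456-70088515, minus strand) had the largest fitted changes but were below background with IL-7, so that their rises are bounds, and Igkv9-124 (chr6:67892237-67892296, minus strand) and Igkv14-111 (chr6:68206771-68206830, plus strand) were well above background with IL-7 and were not called higher.
Igkv8-16: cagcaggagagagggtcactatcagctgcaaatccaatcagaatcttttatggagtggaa
Igkv6-29: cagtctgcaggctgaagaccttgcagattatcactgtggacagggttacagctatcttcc
Igkv9-124: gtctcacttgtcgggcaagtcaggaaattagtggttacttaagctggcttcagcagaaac
Igkv14-111: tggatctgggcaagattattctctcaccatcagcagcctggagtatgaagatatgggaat

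Of 79 V kappa segments named on the array, 69 could be tested; 55 were called higher and 6 lower, and the median change was 1.55. These segments were gathered by their names in the array files, and the groups below were formed after their values were seen, so they are a description with no test. Igkv8-24, well above background on all 4 arrays, read -2.88 and -2.21 with IL-7 and 0.99 and 1.27 without it, a rise of 3.67 ± 0.34. Igkv8-16 read -6.67 and -5.43 with IL-7 and -1.77 and -1.2 without it; it was below background with IL-7, and the rise was at least 12.9-fold. Igkv6-29 read -6.69 and -7.22 with IL-7 and -2.97 and -2.12 without it, at least 6.19-fold, and Igkv6-15 -6.16 and -5.93 with IL-7 and -2.35 and -1.9 without it, at least 8.3-fold. Bounds of this kind set the mean of the bright group against the lowest signal called well above background on each dim array, or the dim probe's own signal where that is higher. Some counts depended on the fit: V kappa segments called higher numbered 36 with probes above background on all 8 arrays, V kappa segments called lower numbered 1 to 3 with no filter on dim probes, with only the 4 scrambled arrays and without P2 or M2.

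The 17 tested segments of families 5, 6 and 8 were each called higher. Their probes lie 292 to 1000 kb from the constant region probe. Some were not well above background on both arrays with IL-7. Among the scrambled groups, those passed the filter only through the group without IL-7, so the filter favoured a rise in them. The 6 that were well above background on all 4 arrays rose by 2.6 to 3.67, and 8 that were below background on both arrays with IL-7 rose at least 1.82-fold (Igkv6-14) to at least 12.9-fold (Igkv8-16). The median over these families was 3.36 as fitted and 2.98 with the bounded segments at their bound; over all tested V kappa segments it was 1.55 and 1.46. The 15 segments of family 4, 1026 to 1971 kb away, had a median of 1.32 and 14 calls, each higher. Families 1 and 2, scattered from 716 to 3171 kb, gave 10 rises among 12 and a median of 1.61. They also held Igkv1-88 (-0.74, named after its value was seen), the deepest fall of all tested V kappa segments. Igkv12-89 of family 12 was called lower too (-0.37, named after its value was seen). Families 9 and 14 did not share the rises of families 4, 5, 6 and 8. Of their 7 segments, 2470 to 2935 kb away, none was called higher and 4 were called lower, with changes from -0.50 to 0.15. Of these 4, Igkv9-124 and, named after their values were seen, Igkv9-120 and Igkv14-130 were not called with only the 4 scrambled arrays. Igkv9-124 read 2.35 and 2.58 with IL-7 and 2.15 and 2.05 without it, and Igkv14-111 2.12 and 2.47 with IL-7 and 2.26 and 2.19 without it. Calls that did not hold in the refits included that of Igkv9-124 (-0.42 to -0.25 without P2, M1 or M2). So did those of Igkv9-120 (-0.37 without M2) and Igkv14-130 (-0.31 to -0.26 without P2 or M2). Igkv9-124 also lost its call with quantile normalization (-0.25) and the deposited table.

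Distance alone did not order the segments. Family 3 holds the segments nearest to the constant region, 23 to 208 kb away, and its 7 members changed by 0.01 to 1.57: Igkv3-1 read 0.38 and 0.48 with IL-7 and 0.62 and 0.73 without it, and Igkv3-2 0.93 and 0.90 with IL-7 and 0.90 and 0.95 without it, and neither was called. Igkv1-35 read 1.09 and 0.93 with IL-7 and 2.33 and 2.27 without it. V segments are near-identical copies in part: 12 of the 69 probes matched the probe of another segment at 90% or more of at least 40 aligned bases, so single segments of a family are uncertain, while the medians of families 5, 6 and 8 and of families 9 and 14 differ in sign.

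**Figure D1:**
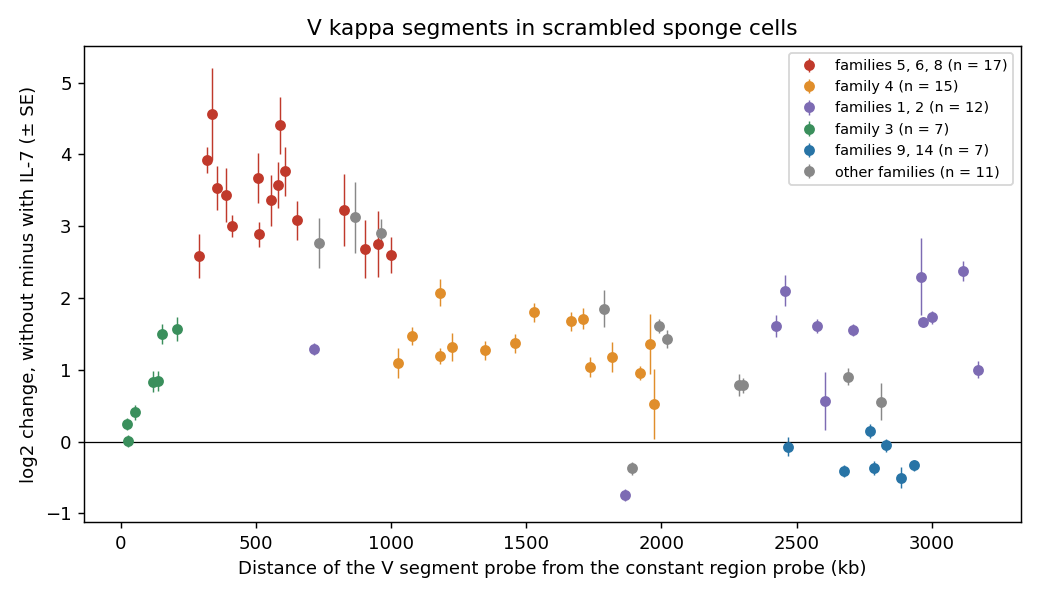
Change of each tested V kappa segment (log2, without minus with IL-7, ± SE, 2 arrays per group) against the distance of its probe from the constant region probe in kb, coloured by family. The 17 segments of families 5, 6 and 8 sit between 2.59 and 4.57 as fitted, 8 of them below background with IL-7 so that their height in the plot is no exact rise; the 7 of families 9 and 14 sit between -0.50 and 0.15.

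Genes that join broken ends moved in both directions. Of 19 end joining and break response genes tested, 4 were higher, a share near the 20.7% of all genes. Another 11 were lower, against 27.4% of all genes. Dclre1c, which encodes the Artemis nuclease that opens the hairpins left by the recombinase, read 1.54 and 1.6 with IL-7 and 2.95 and 3.04 without it, a rise of 1.42 ± 0.08. The other rises, named after their values were seen, were Xrcc6 (0.80), Polm (0.79) and Lig4 (0.66), which encode the Ku70 subunit, polymerase mu and DNA ligase IV. Nbn and Mre11a, subunits of the MRN complex that senses breaks, fell by 2.13 and 1.09, and Hmgb1 and Hmgb2, DNA-bending cofactors of the recombinase, fell by 0.97 and 1.16. Hmgb2 read 8.17 and 8.1 with IL-7 and 7.12 and 6.84 without it.

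Receptor signalling genes rose more often than they fell: 9 of 26 pre-B cell receptor signalling genes were higher and 3 lower. Bank1, a scaffold for receptor-bound kinases, read -3.48 and -2.9 with IL-7 and -0.57 and -0.28 without it, a rise of 2.76 ± 0.21. Lyn rose by 0.98 ± 0.12, Tec by 0.95 ± 0.11 and Syk by 0.61 ± 0.09, all kinases close to the receptor. Btk, another, read 5.02 and 5.08 with IL-7 and 5.0 and 5.04 without it and was not called, but was called higher (0.29) with quantile normalization. The falls, named after their values were seen, were the T cell signalling genes Zap70 (-0.50) and Lat (-0.44) and the exchange factor Vav1 (-0.36, but 0.12 and not called with quantile normalization). Inhibitory receptors and phosphatases split 8 higher and 3 lower of 21: the Fc receptor Fcgr2b rose by 1.21 ± 0.09 and the related Fcrla from 1.88 and 2.05 to 3.98 and 4.27, while Cd5 (-0.93), the phosphatase gene Ptpn6 (-0.72) and Ptpn11 (-0.32, named after its value was seen) fell. These counts also varied with the fit: receptor signalling genes called lower numbered 1 with quantile normalization, with the deposited table and without M2. Refitted, the call was also lost for Zap70 (-0.47 without M2), Vav1 (-0.30 to -0.29 without P1 or M2) and Ptpn11 (-0.36 to -0.29 without P1, P2, M1 or M2). Zap70 (-0.16) and Ptpn11 (-0.007) were not called with quantile normalization.

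Antigen presentation genes of MHC class II rose from low levels. Cd74, the invariant chain that guides class II molecules, read -3.75 and -3.26 with IL-7 and 0.24 and 0.46 without it, a rise of 3.86 ± 0.18 or 14.5-fold (adjusted p = 0.00023). H2-Eb1, a class II beta chain, read -2.11 and -2.03 with IL-7 and 0.53 and 0.77 without it, a rise of 2.72 ± 0.11. H2-DMb1, a chain of the peptide exchange factor, went from below background to -3.29 and -3.04, at least 4.02-fold, and Ciita, the master activator of class II genes, from below background to -3.97 and -3.93, at least 1.86-fold. In all 12 of 17 genes of the list were higher. They include Cd40, which is counted again among the TNF family genes below. The 1 fall, named after its value was seen, was Rfxank (-0.29), a class II promoter factor. Class I genes moved less, 7 higher and 4 lower of 15, a share of falls near the 27.4% of all genes. The class I heavy chains H2-K1 (0.67) and H2-D1 (0.53) rose, while the peptide transporter Tap1 (-0.54) and the immunoproteasome subunit Psmb9 (-0.76) fell; Psmb8 (-0.38, but 0.03 and not called with quantile normalization) and Pdia3 (-0.38), named after their values were seen, fell with them. Among the named genes, refits ended the calls of Ciita (without M2), Rfxank (-0.34 to -0.23 without P2, M1 or M2), H2-D1 (0.44 without M2) and Pdia3 (-0.33 to -0.31 without P2 or M1). With normexp background correction Ciita changed by 0.11 and was not called. Rfxank also lost its call with normexp (-0.19), quantile normalization (-0.17) and the deposited table. The same held for Rfxank with no filter on dim probes and with only the 4 scrambled arrays.

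Receptors of the mature B cell surface rose too. Cd40, the receptor for T cell help, read -2.49 and -2.2 with IL-7 and 1.72 and 2.21 without it, a rise of 4.31 ± 0.22 or 19.8-fold. The BAFF receptor gene Tnfrsf13c rose by 1.04 ± 0.08 and the cytokine gene Ltb, lymphotoxin beta, from 2.49 and 2.35 to 5.06 and 5.16. Of 23 TNF family genes tested, 8 rose and 5 fell; the falls were Tnfrsf14 (-2.36), Tnf (-1.13) and, named after their values were seen, Tnfrsf13b (-0.46), Traf2 (-0.41) and Tnfrsf9 (-0.26). Tnfrsf14 went from 1.56 and 0.71 to -1.26 and -1.19, and its replicates with IL-7 lay 0.85 apart. Among 20 homing and egress genes, 12 rose and S1pr2 fell (-1.13). Cd69, which holds cells back from leaving tissue, read -0.02 and -0.13 with IL-7 and 2.2 and 2.51 without it, S1pr1, the egress receptor, read -1.07 and -0.99 with IL-7 and 0.38 and 0.57 without it, and the follicle-homing receptor Cxcr5 went from below background to -5.08 and -4.23, at least 1.44-fold. Ccr7 rose by 0.97 ± 0.09 and Cxcr4, the marrow retention receptor, by 0.28 ± 0.09. Cytokine receptors had 12 rises and 1 fall among 23 tested of 37 listed: Il6ra went from below background to -2.58 and -2.04, at least 7.31-fold, Il10ra rose by 2.61 ± 0.26 and Flt3 by 1.67 ± 0.18, and the chemokine gene Cxcl16 fell (-0.77). Refitting moved some counts by over 1.5 times. TNF family genes called lower numbered 2 to 3 with quantile normalization, with the deposited table and with the mean of probes. Homing genes called lower numbered 2 with the mean of probes, and cytokine genes called lower 2 with only the 4 scrambled arrays. Both of these counts also moved with 1 array left out. The refits ended the calls of Tnfrsf9 (-0.29 to -0.23 without P1, P2, M1 or M2), Cxcr4 (0.22 to 0.34 with the block and without P2, M1 or M2) and Cxcl16 (-0.75 without M1). With quantile normalization Tnfrsf13b (-0.05), Traf2 (-0.14) and Tnfrsf9 (-0.15) were not called, nor were they with the deposited table. With the mean of probes Tnfrsf13b (-0.29) and Traf2 (-0.06) were not called. Cxcr5 changed by 0.16 with normexp background correction and was not called.

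**Figure D2:**
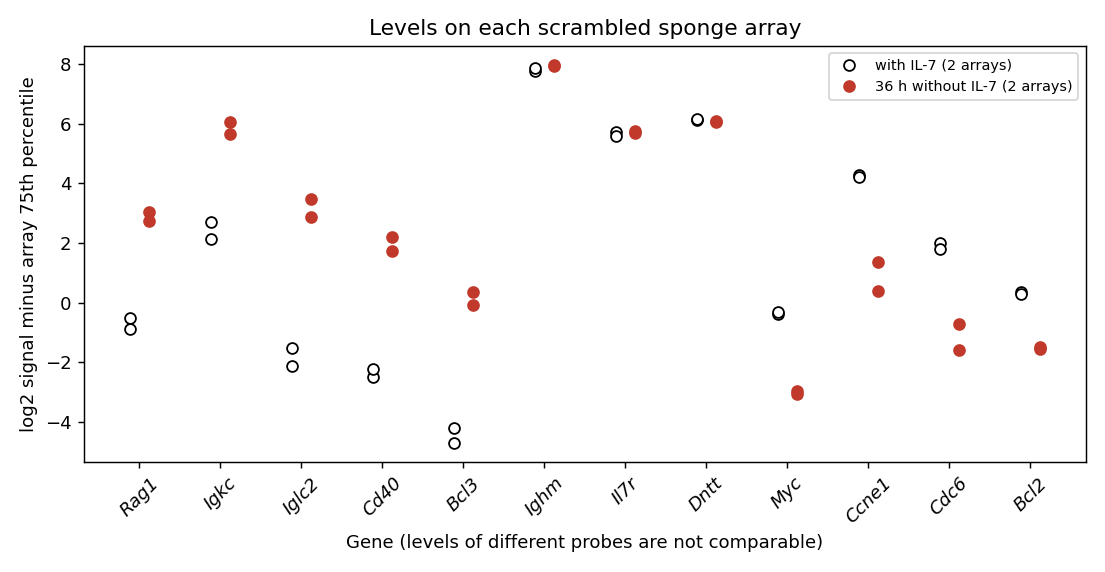
Level of 12 genes on each of the 4 scrambled arrays (log2 signal minus the array's 75th percentile; open points with IL-7, filled points 36 h without it). Rag1, Igkc, Iglc2, Cd40 and Bcl3 lie higher on both arrays without IL-7, and Myc, Ccne1, Cdc6 and Bcl2 lower, while Ighm, Il7r and Dntt overlap or nearly so.

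NF-kappaB genes rose with none called lower: 11 of 19 were higher, with a median change of 0.57. Bcl3, an atypical inhibitor that binds NF-kappaB in the nucleus, read -4.69 and -4.2 with IL-7 and -0.08 and 0.35 without it, a rise of 4.58 ± 0.23 or 23.9-fold, with 1 of the 2 arrays with IL-7 well above background. Relb, a subunit of the noncanonical pathway, rose by 1.74 ± 0.10. Tnfaip3 (A20), which shuts the pathway off, read 0.85 and 1.05 with IL-7 and 2.71 and 2.84 without it, and Birc3, Nfkbid and Nfkbie rose by 1.58, 1.55 and 1.54. Immediate early genes split 12 higher and 5 lower of 23. Klf2, a quiescence factor, read 0.76 and 0.89 with IL-7 and 3.38 and 3.5 without it, a rise of 2.62 ± 0.08, Jun rose by 1.84 ± 0.24 and the antiproliferative Btg2 by 1.8 ± 0.18. The falls were Nr4a2 (-1.08) and, named after their values were seen, Atf3 (-1.0), Zfp36l2 (-0.81), Fos (-0.70) and Ier2 (-0.52). Feedback genes of the MAP kinase pathway fell more often than they rose, 8 against 3 of 17. The share of rises was not above the 20.7% of all genes. Dusp1 went from 0.24 and 0.34 to -1.1 and -1.53, and Etv5 from 4.65 and 4.67 to 3.23 and 3.03. The rises were Rasgrp1 (0.93), a Ras activator on this list rather than a feedback inhibitor, and, named after their values were seen, Dusp16 (0.80) and Dusp2 (0.52). In other fits the numbers differed by over 1.5 times: MAP kinase feedback genes called lower numbered 5 without M2, MAP kinase feedback genes called higher numbered 5 with quantile normalization and with the deposited table. The call was lost for Ier2 (-0.63 to -0.41 without P1, P2, M1 or M2).

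The genes of the IL-7 pathway itself did not fall as a group. Il7r, the receptor's own chain, read 5.74 and 5.59 with IL-7 and 5.68 and 5.75 without it and was not called (adjusted p = 0.59), but was called higher (0.47) with quantile normalization. Cish, an inhibitor that STAT5 is known to induce, read -2.22 and -2.03 with IL-7 and -0.85 and -0.71 without it and rose by 1.35 ± 0.10 (adjusted p = 0.00037); Socs1 read 0.04 and 0.28 with IL-7 and 2.53 and 2.8 without it and rose by 2.5 ± 0.13. Socs5 rose by 0.85 ± 0.15 and Socs2 by 0.24 ± 0.08, Socs3 read 0.95 and 0.84 with IL-7 and 0.52 and 0.67 without it and was not called, and none of the 8 SOCS genes was called lower. Il2ra, the IL-2 receptor alpha chain, read 2.69 and 2.69 with IL-7 and 4.96 and 5.16 without it, a rise of 2.37 ± 0.10. Of 14 tested genes of the receptor, JAK, STAT and PIM list, 6 rose and 1 fell, Jak3 (-0.35, named after its value was seen). Pim1 read 1.61 and 1.65 with IL-7 and 1.77 and 1.84 without it and was not called, while Pim2 rose by 0.82 ± 0.16. Counts that moved by over 1.5 times were these: JAK, STAT and PIM genes called higher numbered 3 without M2. Calls that did not hold were those of Socs2 (0.17 to 0.27 with the block and without P1, M1 or M2) and Jak3 (-0.40 to -0.26 with the block and without P1, M1 or M2). Jak3 also lost its call with quantile normalization (-0.25), the deposited table and the mean of probes (-0.25). The same held for Jak3 with no filter on dim probes, only the 4 scrambled arrays and array weights.

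On the PI3K side, 10 of 26 genes rose and 4 fell, none by 2-fold. Foxo1, the factor that drives the RAG genes, read 4.94 and 5.21 with IL-7 and 5.79 and 5.99 without it, a rise of 0.81 ± 0.12. Pik3ip1, an inhibitor of PI3K, rose by 0.77 ± 0.08 and Sesn1 by 0.63 ± 0.08. The falls were Trib3 (-0.81), Tsc2 (-0.44) and, named after their values were seen, Akt1 (-0.31) and Akt2 (-0.20), which turned to 0.07 and 0.09 and were not called with quantile normalization. The FoxO motif GTAAACA, on either strand, was in 2 of 23 promoter windows of this list and in 3.55% of all windows. Some counts depended on the fit: PI3K and FoxO genes called higher numbered 4 to 6 with no filter on dim probes, with only the 4 scrambled arrays and without P2, M1 or M2 and 17 with quantile normalization and with the deposited table, PI3K and FoxO genes called lower numbered 1 to 2 with quantile normalization, with the deposited table, with no filter on dim probes, with the block, with only the 4 scrambled arrays, with array weights and without P1, M1 or M2. Refitted, the call was also lost for Tsc2 (-0.50 to -0.28 with the block and without P1, M1 or M2), Akt1 (-0.28 to -0.26 without P1 or M1) and Akt2 (-0.23 to -0.18 with the block and without P1, P2, M1 or M2).

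B lineage transcription factors rose in 18 of 33 cases, mostly by less than 2-fold. Irf4, which drives light chain rearrangement, read 3.44 and 3.63 with IL-7 and 4.66 and 4.82 without it, a rise of 1.2 ± 0.10 (adjusted p = 0.00048), while its relative Irf8 read 6.59 and 6.84 with IL-7 and 6.72 and 6.91 without it and was not called, but was called higher (0.53) with quantile normalization. Ebf1 and Pax5, which hold B lineage identity, rose by 0.62 ± 0.09 and 0.56 ± 0.11, and Ikzf1 and Ikzf3, which encode Ikaros and Aiolos, by 0.37 ± 0.08 and 0.52 ± 0.09. Sox4 rose by 1.05 ± 0.18 and Bach2 by 0.91 ± 0.14. The falls were Id3 (-0.98), Gfi1b (-0.94) and, named after its value was seen, Mef2c (-0.35). Bcl6, a repressor that protects cells during rearrangement, rose by 0.37 ± 0.08. Of 13 genes of later B cell fates, 9 rose and 1 fell: the plasma cell factor gene Prdm1 rose from -4.26 and -4.14 to -2.68 and -2.99 and Sdc1 fell from -1.54 and -1.45 to -3.31 and -3.25. These counts also varied with the fit: B lineage factors called higher numbered 11 without M2, fate genes called lower numbered 2 with quantile normalization, with the deposited table, with probes above background on all 8 arrays, with the mean of probes and without P2. Among the named genes, refits ended the calls of Pax5 (0.54 without M1), Ikzf1 (0.34 without M2), Mef2c (-0.28 to -0.27 without P2 or M2) and Bcl6 (0.33 without M2).

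Genes of cell death moved on both sides. Among 14 BCL2 family genes, 5 rose and 7 fell. Bcl2, which protects from death, read 0.36 and 0.29 with IL-7 and -1.47 and -1.56 without it, a change of -1.84 ± 0.09 (adjusted p = 0.00023), while the protective Bcl2l1 rose by 0.74 ± 0.10 and Mcl1 by 0.40 ± 0.08. The killer genes Bmf and Bbc3 rose by 1.83 ± 0.10 and 1.29 ± 0.21, and Bax by 0.41 ± 0.12 (named after its value was seen). Bok, another killer gene, fell from 2.72 and 2.53 to -0.17 and -1.0, and Bcl2l11 (BIM) read -2.46 and -1.98 with IL-7 and -3.53 and -2.76 without it, a difference of -0.93 that was not called (adjusted p = 0.063); it was called lower with the block (adjusted p = 0.031), with normexp background correction, with probes well above background on all 8 arrays, with the mean of a gene's probes and without M2. Regulators and targets of p53 did not move as one: 15 of 28 rose and 5 fell. Gadd45g rose by 2.4 ± 0.27, whereas Cdkn1a, the p21 cell cycle inhibitor, read 2.9 and 3.04 with IL-7 and 1.25 and 1.03 without it, a change of -1.83 ± 0.10. With Cdkn1a and Gtse1 (-1.43), the falls were, named after their values were seen, Ddb2 (-1.19), Phlda3 (-0.75) and Pmaip1 (-0.32). Refitting moved these counts by over 1.5 times: BCL2 family genes called higher numbered 3 without M2. The refits ended the calls of Mcl1 (0.33 without M2), Bax (0.33 to 0.48 without P1, P2, M1 or M2) and Pmaip1 (-0.33 to -0.32 without M1 or M2).

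Genes of the cell cycle fell widely. Ccne1, the cyclin that starts DNA replication, read 4.3 and 4.21 with IL-7 and 1.38 and 0.38 without it, a change of -3.37 ± 0.30 (adjusted p = 0.00057) or 10.4-fold lower. Ccnd2 and Ccnd3, the cyclins that answer growth factors, fell by 1.05 and 0.68, from 0.47 and 0.71 to -0.55 and -0.38 and from 8.71 and 8.49 to 7.96 and 7.87, and Cdk6 went from -0.66 and -0.63 to -1.26 and -1.74. Of 21 cyclins and their kinases, 12 fell and 2 rose, Cdk5 (0.39) and Ccnl1 (0.36), named after their values were seen. E2F factors fell in 8 of 10 cases, both the activator E2f1 (2.73 and 2.67 to 0.76 and 0.34) and the repressors E2f7 (3.85 and 3.77 to 1.88 and 1.2) and E2f8 (4.62 and 4.51 to 2.75 and 2.13); the 1 rise was Tfdp2 (0.39, named after its value was seen). Inhibitors of CDKs did not rise in their place: 7 of 13 inhibitors and pocket proteins fell, and 1 rose, Cdkn1b (0.39, named after its value was seen), which encodes p27. Cdkn2c fell by 1.39, and the pocket protein gene Rbl1 fell by 1.82. In other fits the numbers differed by over 1.5 times: cyclins and kinases called higher numbered 0 to 1 with normexp background correction and without M1 or M2. The call was lost for Cdk5 (0.39 without M1 or M2), Ccnl1 (0.32 without M2), Tfdp2 (0.27 to 0.41 without P2, M1 or M2) and Cdkn1b (0.34 without M2).

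DNA replication genes fell in 50 of 54 cases, 48 of them at least 2-fold, with a median change of -2.04. Cdc6, which loads the replicative helicase, read 2.0 and 1.79 with IL-7 and -0.72 and -1.58 without it, a change of -3.05 ± 0.27. The helicase gene Mcm6 read 7.35 and 7.0 with IL-7 and 4.62 and 3.98 without it, Lig1, the ligase that joins new strands, 6.61 and 6.45 with IL-7 and 3.86 and 3.17 without it, and Gins2 2.81 and 3.21 with IL-7 and 0.29 and -0.37 without it. The 1 rise, named after its value was seen, was Orc4 (0.63). The 2 arrays without IL-7 differed: replicate 2 read below replicate 1 in 50 of the 54 genes, by a median of 0.38, against a median gap of 0.00 over all genes.

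All 69 mitosis and chromosome segregation genes were called lower, 63 of them at least 2-fold, with a median change of -1.48. The 68 that were well above background on all 4 arrays changed by -2.39 to -0.58. The 2 arrays without IL-7 differed here too. Replicate 2 read below replicate 1 in all 69 genes, with a median gap of -0.36. Aurkb, the kinase that checks chromosome attachment, went from -3.16 and -3.77 to below background, at least 3.66-fold. The kinetochore genes Cenpp and Spc24 fell from 3.48 and 3.48 to 1.35 and 0.83 and from 3.69 and 3.68 to 1.53 and 1.1. Ncapg2, a condensin subunit, read 4.71 and 4.62 with IL-7 and 2.78 and 2.19 without it. Repair by homologous recombination, which runs after replication, fell too, in 33 of 37 genes with none higher: Brca1, which helps load the strand exchange machinery, read -1.24 and -0.95 with IL-7 and -3.15 and -3.79 without it. Of 14 checkpoint genes, 9 fell and none rose, with changes of -1.57 for Wee1 and -2.49 for Clspn.

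Some promoters of these genes carry known cell cycle motifs, and 3 are printed. They were picked by size of fall among genes whose window held a match. The motif was E2F for Cdc6 and Mcm6, from the replication list, and TTTGAA for Ncapg2, from the mitosis list. A match in each printed window was therefore fixed by the choice. The windows are RefSeq sequences of build GRCm38.p6, from 250 bases before to 50 after the start site, on the gene's strand; matches are in capitals. In Cdc6 (chr11:98907901-98908200, plus strand) and Mcm6 (chr1:128359656-128359955, minus strand) the capitals mark an E2F match, TTTCCCGC or TTTGGCGC on either strand, starting at -138 in Cdc6 and at -110 and -47 in Mcm6, counted with the first base of the transcript as 0. In Ncapg2 (chr12:116405186-116405485, plus strand) they mark the cell cycle homology region TTTGAA at -18 and E2F matches at -249 and 0.
Cdc6: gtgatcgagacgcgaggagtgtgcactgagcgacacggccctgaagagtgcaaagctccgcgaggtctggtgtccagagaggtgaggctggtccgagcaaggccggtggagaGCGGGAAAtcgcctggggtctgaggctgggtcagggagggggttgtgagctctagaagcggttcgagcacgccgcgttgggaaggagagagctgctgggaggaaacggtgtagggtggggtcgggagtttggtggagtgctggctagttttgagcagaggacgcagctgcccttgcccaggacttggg
Mcm6: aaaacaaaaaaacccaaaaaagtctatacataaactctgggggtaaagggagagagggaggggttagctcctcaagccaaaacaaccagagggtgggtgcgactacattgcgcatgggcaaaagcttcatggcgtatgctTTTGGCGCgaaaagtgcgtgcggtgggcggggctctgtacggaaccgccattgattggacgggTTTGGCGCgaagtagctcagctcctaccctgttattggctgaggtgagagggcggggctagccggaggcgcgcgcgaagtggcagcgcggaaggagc
Ncapg2: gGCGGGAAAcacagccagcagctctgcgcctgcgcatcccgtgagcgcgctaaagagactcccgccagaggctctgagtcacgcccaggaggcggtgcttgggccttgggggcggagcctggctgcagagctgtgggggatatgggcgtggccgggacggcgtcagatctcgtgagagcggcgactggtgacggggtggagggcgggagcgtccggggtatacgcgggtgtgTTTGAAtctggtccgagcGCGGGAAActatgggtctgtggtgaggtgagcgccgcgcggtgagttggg

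An E2F match was in 14 of 44 replication gene windows (31.8%), against 1.63% of 27025 windows, 1 for each gene. Of genes called lower 5.63% held one, and of genes called higher 1.27%. The median change with and without a match was -2.05 and -1.97 in the replication list, -1.81 and -1.48 in the mitosis list, and -0.43 and -0.03 over all windows with a tested gene. TTTGAA, on either strand, was in 66.7% of 60 mitosis gene windows against 18.1% of all, and CCAAT, which it can adjoin, in 71.7% against 37.9%. A match is a description of these letters, not of binding.

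**Figure D3:**
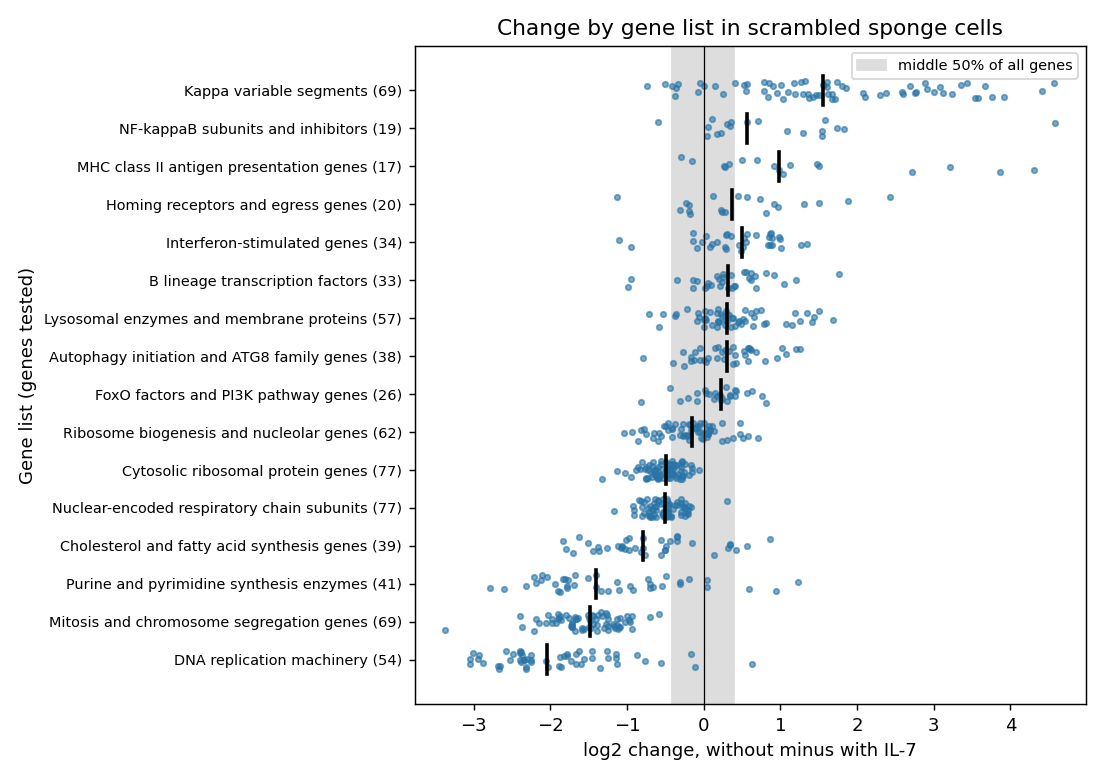
Change of each tested member of 16 gene lists (log2, without minus with IL-7; 1 point per gene, bar at the median), with the middle 50% of all 21320 genes shaded. Of the replication and mitosis genes 53 of 54 and 69 of 69 lie below 0, with medians of -2.04 and -1.48, and 18 of 19 NF-kappaB genes lie above it, with a median of 0.57.

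Most replication-dependent histone genes fell. Of 39 tested of 55 listed, 27 were lower, against 27.4% of all genes. The linker histone H1f5 read 6.56 and 6.4 with IL-7 and 4.55 and 4.02 without it. Another 6 rose, a share below the 20.7% of all genes. The rises were H2ac18, from 0.78 and 0.86 to 3.57 and 3.88, and, named after their values were seen, H2bu2 (1.5), H2aw (1.43), H2bc4 (1.04), H1f2 (0.99) and H2bc6 (0.79). Histone genes are near-copies of each other, so single members are uncertain. Factors that copy DNA methylation and assemble chromatin fell in 22 of 31 cases: Dnmt1 read 3.77 and 3.64 with IL-7 and 1.36 and 0.94 without it, Uhrf1 6.86 and 6.84 with IL-7 and 5.22 and 4.94 without it and the histone chaperone Asf1b 6.69 and 6.68 with IL-7 and 4.64 and 4.12 without it. The rises were, named after their values were seen, Asf1a (1.06), the paralogue of Asf1b, Ezh1 (0.88), Kdm6b (0.60) and Tet2 (0.47).

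Myc, the growth factor-driven activator of biosynthesis genes, read -0.38 and -0.29 with IL-7 and -2.96 and -3.06 without it, a change of -2.67 ± 0.09 (adjusted p = 0.00023) or 6.38-fold lower. In its network 7 of 13 genes rose and 4 fell, a share of falls near the 27.4% of all genes. Mycn changed by -1.01, and Mxd3 by -2.01, while Mlxip rose by 1.44 ± 0.11. The antagonist Mxi1 went from below background to -4.68 and -4.07, at least 1.75-fold. Enzymes of nucleotide synthesis fell in 35 of 41 cases, with a median change of -1.4. Rrm2, a subunit of the enzyme that makes deoxynucleotides, read 7.78 and 7.51 with IL-7 and 5.76 and 5.16 without it, Dut, which keeps uracil out of DNA, 4.42 and 4.31 with IL-7 and 1.84 and 1.32 without it, and the mitochondrial folate enzyme gene Mthfd2 2.29 and 2.4 with IL-7 and -0.04 and -0.48 without it. The rises, named after their values were seen, were Samhd1 (1.23), which degrades deoxynucleotides, Rrm2b (0.94), the subunit used outside S phase, and Ctps2 (0.59). Of 13 polyamine genes 6 fell and 2 rose, a share of rises below the 20.7% of all genes. Spermidine synthase, Srm, fell by 1.19. The catabolic gene Sat1 rose by 0.82 ± 0.09, as did Dhps (0.30, named after its value was seen). Counts that moved by over 1.5 times were these: Myc network genes called higher numbered 2 to 4 with no filter on dim probes and without M1 or M2, polyamine genes called higher numbered 1 with no filter on dim probes, with only the 4 scrambled arrays and without P1 or M2. Calls that did not hold were those of Mxi1 (with the block and without P1, M1 or M2) and Dhps (0.24 to 0.26 without P1 or M2). Mxi1 changed by 0.16 with normexp background correction and was not called.

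The protein synthesis machinery fell in small steps. Of 77 cytosolic ribosomal protein genes, 71 were called lower and none higher, but the median was -0.49 and 3 fell by 2-fold: Rps2 read 7.01 and 7.06 with IL-7 and 5.71 and 5.71 without it, Rpl3 changed by -1.13 and Rplp1 by -1.03. Ribosomal protein genes have many pseudogene copies, which the probes may not tell apart. Ribosome biogenesis genes were less uniform, 22 lower and 6 higher of 62, a share of falls near the 27.4% of all genes, with Npm1 and Ncl falling by 0.94 and 0.82. The E-box CACGTG was in 16.1% of their windows against 7.24% of all, and none of the 9 genes with a match was called in either direction. Respiratory chain subunits fell in 68 of 77 cases with a median of -0.50, among them Cox5a (-0.91) and Ndufa4 (-0.92). The 1 rise, named after its value was seen, was Cox7a2l (0.30). Some counts depended on the fit: ribosomal protein genes called lower numbered 27 with quantile normalization and with the deposited table, ribosome biogenesis genes called higher numbered 1 without M2 and 13 with quantile normalization and with the deposited table, respiratory chain genes called lower numbered 34 with quantile normalization and with the deposited table. Refitted, the call was also lost for Cox7a2l (0.22 to 0.31 without P2, M1 or M2).

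Other metabolic genes fell in part. Glycolytic and pentose phosphate genes gave 14 falls and 3 rises among 31. Gapdh read 8.32 and 8.4 with IL-7 and 7.16 and 7.11 without it and Pgk1 5.33 and 5.36 with IL-7 and 4.14 and 4.13 without it, while Aldoa (0.66), Pdk1 (0.65) and Eno3 (0.59), named after their values were seen, rose. Cholesterol and fatty acid synthesis genes fell in 30 of 39 cases, with a median of -0.79: Fdps, which makes the isoprenoid precursor of sterols, read 5.39 and 5.35 with IL-7 and 3.59 and 3.48 without it, and Sqle, which makes the first oxygenated sterol precursor, 4.92 and 4.96 with IL-7 and 3.51 and 3.35 without it. The 4 rises, named after their values were seen, were Scap (0.86), Tm7sf2 (0.56), Insig2 (0.42) and the cholesterol exporter gene Abca1 (0.32). Genes of amino acid supply fell in 21 of 35 cases, among them Asns (-0.19 and -0.17 with IL-7 and -1.97 and -2.1 without it), the serine synthesis gene Psat1 (4.0 and 4.0 with IL-7 and 2.23 and 1.88 without it) and the leucine transporter gene Slc7a5 (1.1 and 1.02 with IL-7 and -0.46 and -0.50 without it), and 1 rose, Slc38a1 (0.38, named after its value was seen). These counts also varied with the fit: glycolytic genes called higher numbered 5 with quantile normalization and with the deposited table. Among the named genes, refits ended the calls of Pdk1 (0.59 without M2), Abca1 (0.30 to 0.34 without P1, P2, M1 or M2) and Slc38a1 (0.34 without M2).

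Genes of breakdown moved the other way. Lysosomal genes rose in 26 of 57 cases and fell in 3, Naglu (-0.72), Glb1 (-0.58) and Atp6v1a (-0.37), named after their values were seen. The sialidase gene Neu1 read 4.12 and 4.33 with IL-7 and 5.5 and 5.78 without it, the protease gene Ctss, which trims the invariant chain, 2.23 and 2.23 with IL-7 and 3.65 and 3.83 without it, and the proton pump subunit gene Atp6v0a1 1.5 and 1.7 with IL-7 and 2.99 and 3.07 without it. The core of the lysosomal CLEAR element, GTCACGTG on either strand, was in 8 of 44 lysosomal windows (18.2%) against 2.33% of all. Of these 8 genes none was called higher and 2 were called lower, and their median change was 0.01 against 0.42 for those without a match. Autophagy genes rose in 19 of 38 cases, with Gabarapl1 rising by 1.07 ± 0.14 and Atg2b by 1.03 ± 0.08; Optn (-0.79) and Atg4b (-0.40, named after its value was seen) fell. Chaperones of the endoplasmic reticulum gave 12 falls and 6 rises among 30, a share of rises near the 20.7% of all genes. Sdf2l1 changed by -1.52 and P4hb by -0.88, while the stress kinase gene Eif2ak3 rose by 0.86 ± 0.09. Refitting moved these counts by over 1.5 times: lysosomal genes called higher numbered 13 to 16 without P1 or M2, lysosomal genes called lower numbered 5 with probes above background on all 8 arrays and without P2, chaperone genes called lower numbered 7 without M1. The refits ended the calls of Atp6v1a (-0.41 to -0.32 without P1, M1 or M2) and Atg4b (-0.39 without M2).

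Interferon-stimulated genes rose in 18 of 34 tested of 40 listed, with Mx2 rising by 1.26 ± 0.20 and Irf9, a subunit of the interferon-activated factor, by 0.98 ± 0.08, while Ifit2 and Ifi47 fell by 1.1 and 0.95. Of 17 microRNA pathway genes, 8 rose and 5 fell, a share of falls near the 27.4% of all genes. The Microprocessor genes Drosha (-0.66) and Dgcr8 (-0.95) fell, as did Ran (-1.35) and, named after their values were seen, Tarbp2 (-0.53) and Xpo5 (-0.44). The Argonaute genes Ago3 and Ago4 rose by 0.63 ± 0.13 and 0.64 ± 0.10. Published miR-15 family targets fell in 18 of 30 cases, but their deepest falls, Ccne1, Clspn and E2f7, are cell cycle genes named above. The rises among them were Cd28 (0.69) and, named after their values were seen, Hmga2 (1.23), Ccnt2 (0.72), Rictor (0.41) and Myb (0.39). Of long noncoding RNAs, Malat1 rose by 1.54 ± 0.21 and Neat1 by 1.2 ± 0.10. The snoRNA host genes Gas5 and Snhg1 fell by 0.84 and 0.79. With the mean of its kept probes Gas5 changed by -0.09 and was not called. In other fits the numbers differed by over 1.5 times: interferon genes called higher numbered 11 without M2, microRNA pathway genes called higher numbered 3 to 5 with no filter on dim probes, with the mean of probes, with only the 4 scrambled arrays and without P1, P2, M1 or M2. The call was lost for Ago3 (0.60 without M1), Rictor (0.36 without M2) and Myb (0.39 to 0.40 without M1 or M2).

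Several of the largest changes were in genes that no list held. Prm1, which encodes a protamine of sperm chromatin, read -2.53 and -2.0 with IL-7 and 2.03 and 2.46 without it, a rise of 4.51 ± 0.21 or 22.8-fold. Itgb3, an integrin chain, read -1.24 and -0.98 with IL-7 and 2.07 and 2.37 without it, and Kdm5b, a histone demethylase gene, -3.33 and -2.71 with IL-7 and 0.48 and 0.55 without it. Lrrc15 and Agbl1 went from below background to -1.54 and -0.90 and -1.83 and -1.6, at least 15.5-fold and 11-fold. Among the falls, Cdca7 read 4.56 and 4.25 with IL-7 and 1.32 and 0.69 without it, a change of -3.4 ± 0.22, the largest among genes with a symbol that were well above background on all 4 arrays. Ptgs1, which encodes the prostaglandin enzyme COX-1, read -0.50 and -0.52 with IL-7 and -3.17 and -3.74 without it, Tac4 -1.44 and -1.53 with IL-7 and -4.18 and -4.67 without it and Bcat1, a branched-chain amino acid enzyme gene, -0.43 and -0.49 with IL-7 and -2.96 and -3.26 without it. The falls with the largest fitted values are less sure: Tbxas1, Scarf1 and Strip2 fell below background from 1.92 and -1.56, -0.02 and -2.62 and -0.07 and -1.74, so the replicates with IL-7 lay 3.48, 2.60 and 1.66 apart. Rap1gap had the widest gap with IL-7, 0.82 and -4.02, and Gjd3 the widest without it, -1.21 and -3.5.

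The housekeeping genes did not all hold still. Actb read 9.44 and 9.23 with IL-7 and 9.04 and 9.01 without it and Tbp 2.15 and 1.98 with IL-7 and 1.78 and 1.83 without it, and neither was called, though with normexp background correction Actb was called lower (-0.31), as it was without P2; Tbp was called lower with probes well above background on all 8 arrays, with the mean of a gene's probes and without P2. By contrast, Polr2a went from 2.32 and 2.33 to 1.74 and 1.69 and was called lower (adjusted p = 0.003), as was Gapdh.

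The miR-15 sponge cells lost IL-7 on other arrays of the same slide, which gives the scrambled cells' changes a comparison that shares no sample. The difference of the 2 withdrawal effects was called for 1124 of 21320 genes (5.27%), and in 1093 of these the scrambled cells' change was the further from 0. The difference was called for 41 of 54 replication genes and 52 of 69 mitosis genes, where the median change was -2.04 and -1.48 in scrambled cells and -0.69 and -0.35 in sponge cells. Ccne1 read 4.3 and 4.21 with IL-7 and 1.38 and 0.38 without it in scrambled cells, and 4.82 and 4.96 with IL-7 and 4.15 and 4.06 without it in sponge cells, a difference of -2.58 ± 0.43 (adjusted p = 0.035). Bcl2 changed by -1.84 ± 0.09 in scrambled cells and -0.49 ± 0.09 in sponge cells, a difference of -1.35 ± 0.13 (adjusted p = 0.031).

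In other groups few differences or none were called, which does not show that the cells responded alike. Rag1 rose by 3.59 ± 0.27 and 3.42 ± 0.27, a difference of 0.17 ± 0.38 that was not called, and ribosomal protein genes had medians of -0.49 and -0.60 with 0 differences called. V kappa segments had medians of 1.55 and 0.84, with 2 differences called, in Igkv9-120 and Igkv14-130, named after their values were seen. These difference calls rest on few arrays. With the replicate number as a block, none of the 21320 differences was called, and none without replicate 2 of the scrambled cells without IL-7; 5104 and 3350 differences then had an unadjusted p below 0.05 in limma. Without replicate 1 of the scrambled cells with IL-7, 12 were called. The withdrawal calls in scrambled cells moved less, but without replicate 1 or 2 of the arrays without IL-7 the genes called higher numbered 2938 and 2582.

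**Figure D4:**
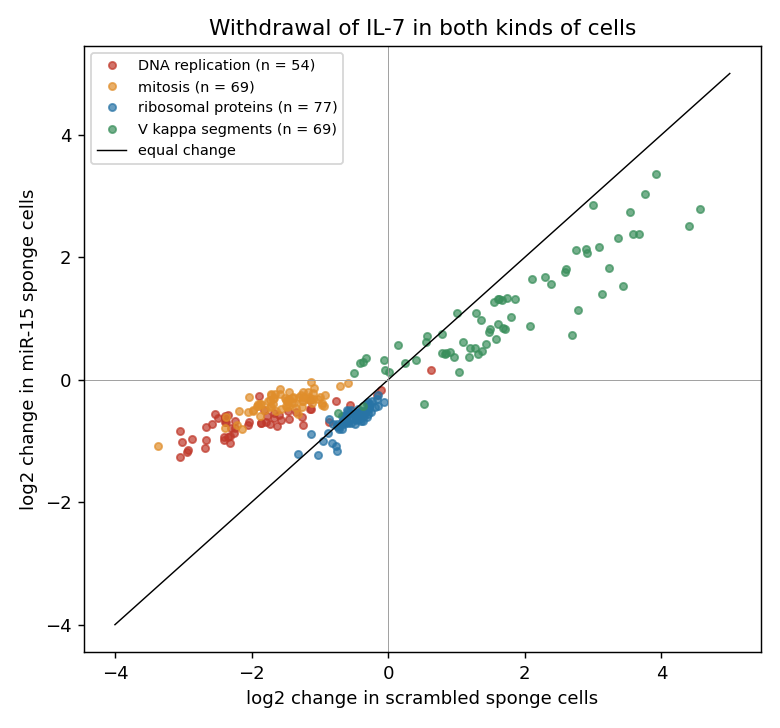
Change without IL-7 in miR-15 sponge cells (y axis, log2) against that in scrambled cells (x axis, log2) for replication, mitosis, ribosomal protein and V kappa genes, 1 point per gene, with the line of equal change. Most replication and mitosis genes lie above the line, with medians of -2.04 and -1.48 in scrambled cells and -0.69 and -0.35 in sponge cells, and ribosomal protein genes lie near it.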

How the data were processed

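RNA of 8 cultures was hybridised to 1-colour Agilent arrays (Cy3, per the labels' protocols), 2 per group. The authors' scanner files hold intensity values that Agilent Feature Extraction 10.7.3.1, per the file headers, had background-subtracted and detrended within each array; the submitters' processing notes name version 10.7.1.1. The deposited value table holds linear intensity values with the same distribution in every column; what was done to make it is not given in the sources used here. The other deposited columns used are flags for spots above background or outlying.

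Here the log2 of the deposited processed signal minus the 75th percentile of each array's non-control spots was used. Outlier-flagged spots were left out, and 6 genes had an array without a value. A probe was kept where any 1 of the 4 groups had both of its arrays well above background (30965 of 55681), and each gene was read by its brightest kept probe. limma 3.58.1 in R 4.3.3 fitted group means over all 8 arrays (4 residual degrees of freedom), with Benjamini-Hochberg adjustment over 21320 genes and a threshold of 0.05. Gene names came from accessions and symbols through RefSeq tables (GRCm38.p6), and immunoglobulin segments from the array's descriptions. The number of arrays limits the precision. On simulated data for this comparison over 21320 genes, 30.5%, 68.5% and 84.5% of changes of 0.5, 1 and 2 log2 units were recovered. Of the simulated calls 6.38% were false. Only 200 genes were changed at each size, far fewer than were called in the real arrays. The adjusted threshold therefore differs, and these shares are not those of the real comparison.

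Per the series' design text the 2 replicates are independent experiments with separately made clones, so the replicate number pairs samples across groups; deviations of same-numbered arrays correlated at 0.02 to 0.13 over genes. Described genes were up to 6 called members per list with the largest non-overlapping changes, the 25 largest rises and falls, 8 bounds and 10 gaps per direction, and a fixed set of lineage and IL-7 genes; others are marked. The comparison, gene lists and members were chosen with earlier results of these data known.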

Additional observations from a re-analysis of the deposited data

Results flagged for a closer look

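The genes below were picked out because the change without IL-7 differed between scrambled and miR-15 sponge cells in limma at an adjusted p below 0.05, as it did for 1124 genes in all. Each value in parentheses is the difference of the log2 changes, scrambled minus sponge cells. In the cell cycle, DNA repair and chromatin lists these were Asf1b (-1.77), Aurkb (-2.3), Brca1 (-1.76), Ccne1 (-2.58), Cdc6 (-2.22), Cdkn1a (-1.61), Cdkn2c (-1.12), Cenpp (-1.61), Clspn (-1.86), Dnmt1 (-1.76), E2f1 (-1.44), E2f7 (-1.75), E2f8 (-1.68), Ezh1 (0.65), Gins2 (-1.78), H1f5 (-1.56), H2aw (0.85), Lig1 (-2.0), Mcm6 (-1.91), Nbn (-1.69), Ncapg2 (-1.67), Rbl1 (-1.46), Spc24 (-1.76), Uhrf1 (-1.12) and Wee1 (-1.25). In the lists of metabolism, Myc, protein folding and breakdown they were Atg2b (0.71), Ctss (0.64), Dut (-1.83), Fdps (-0.84), Gapdh (-0.62), Mthfd2 (-1.78), Mxd3 (-1.68), Myc (-1.1), Optn (-0.87), P4hb (-0.63), Pgk1 (-0.61), Psat1 (-1.11), Rrm2 (-1.65), Sdf2l1 (-1.1), Sqle (-0.79) and Trib3 (0.91). Among receptors, signalling, survival and transcription factor genes they were Atf3 (-0.97), Bcl2 (-1.35), Bok (-2.09), Cd69 (1.98), Ddb2 (-0.74), Dusp1 (-1.34), Gfi1b (-0.83), Klf2 (0.84), Nfkbie (0.70), Nr4a2 (-0.72), Phlda3 (-0.61), Psmb9 (-0.52), Sdc1 (-1.2), Socs1 (0.99), Tap1 (-0.51), Tnfaip3 (0.99), Tnfrsf13c (0.66) and Tnfrsf14 (-2.96). Outside these lists they were Bcat1 (-1.12), Cdca7 (-2.1), Dgcr8 (-0.89), Ighv8-5 (1.01), Igkv14-130 (-0.69), Igkv9-120 (-0.68), Polr2a (-0.69), Ran (-0.83) and Strip2 (-4.73). Aurkb and Strip2 were below background on both scrambled arrays without IL-7, so their differences are not exact; the replicates of Strip2 with IL-7 lay 1.66 apart. With the replicate number as a block, 0 of the 1124 differences remained called.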

How the results depend on the processing

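Without replicate 1 or 2 of any scrambled group, the genes called higher numbered 2582 to 4579, the genes called lower 4188 to 5775 and the differences from sponge cells 0 to 1616, against 4414, 5837 and 1124. Under the other settings the genes called higher ran from 3414 (no filter on dim probes) to 5259 (quantile normalization), and those called lower from 4779 (only the 4 scrambled arrays) to 5991 (well above background on all 8 arrays). The differences called were 0 with the replicate block and 0 with no filter on dim probes (4743 at an unadjusted p below 0.05 in limma), 518 with array weights, 1687 with quantile normalization and 1716 with probes well above background on all 8 arrays. The replicate block gave 4512 genes higher and 5778 lower, neither moved by 1.5 times. Of 252 called genes named in the text, 201 kept the call under every setting that gave them a value. With quantile normalization and with the deposited value table the direction turned for Akt1 (0.0701 and 0.0689), Akt2 (0.0941 and 0.0939), Btk (0.292 and 0.292), Dntt (0.409 and 0.409), Igll1 (0.0607 and 0.0591), Psmb8 (0.0314 and 0.0303), Vav1 (0.121 and 0.118), Vpreb2 (0.232 and 0.232) and Vpreb3 (0.182 and 0.181); the cause was not tested. The median change of all genes was -0.02, and -0.20 with no filter on dim probes. With 1 array left out, the lone array was assumed to vary like the other groups. Probes near background limit the dim genes to bounds.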
